A study of Homo sapiens with 6 samples.

Results

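Many small RNAs are made from the introns or exons of longer RNAs, and the genes described here are the noncoding genes that carry them. They were chosen by symbol: SNHG genes with a number, together with GAS5, ZFAS1 and DANCR, formed the hosts of small nucleolar RNAs (snoRNAs), and MIR genes ending in HG formed the hosts of microRNAs. The rule found 104 of the 39020 genes listed in the series, 31 snoRNA hosts and 73 microRNA hosts, and it left out 1 microRNA host. The cells were U2OS, a human osteosarcoma cell line. TIRR iCLIP was done in irradiated (2 libraries) and untreated (2 libraries) cells of genotype TIRR_FLAG, which stably carry FLAG-tagged TIRR. RNA-seq was done in irradiated (1 library) and untreated (1 library) wild-type cells. The dose was 5 Gy, given as X-rays with 4 h of recovery according to the labels, although the design text names gamma radiation for RNA-seq. In iCLIP, ultraviolet light links RNA to the protein that touches it, and the linked RNA is recovered with that protein; TIRR, the product of NUDT16L1, binds the DNA repair protein 53BP1. Because all iCLIP cells carry the tagged protein and all RNA-seq cells are wild type, assay and genotype cannot be told apart, and empty-vector cells were not analysed here.

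The transcript of a snoRNA host is spliced, and the snoRNA is then trimmed from the released intron. Box C/D and H/ACA snoRNAs guide methylation and pseudouridylation of ribosomal RNA, and the spliced remainder of several hosts, GAS5 among them, is degraded during translation by nonsense-mediated decay. MicroRNA hairpins are cut from their hosts in the nucleus by DROSHA with DGCR8 and trimmed by DICER1 in the cytoplasm. The mature strand then pairs with messenger RNAs mainly through its seed.

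The mature microRNAs of the hosts on which the results turn are shown first, because hosts on different chromosomes carry the same seeds. The sequences are those of RefSeq, build GRCh38.p14, written 5′ to 3′ with bases 2 to 8, the seed, in capitals. Of the 27 host and microRNA pairs looked up, 26 were found inside the host. MIR23AHG, in which miR-23a, miR-27a and miR-24 lie together, spans chr19:13834516-13842918 on the minus strand. MIR99AHG spans chr21:16070488-16631727 on the plus strand and MIR100HG spans chr11:122028329-122422871 on the minus strand.
hsa-miR-23a-3p, MIR23AHG: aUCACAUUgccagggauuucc
hsa-miR-27a-3p, MIR23AHG: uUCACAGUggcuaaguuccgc
hsa-miR-24-3p, MIR23AHG: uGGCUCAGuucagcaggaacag
hsa-miR-99a-5p, MIR99AHG: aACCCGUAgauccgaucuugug
hsa-miR-100-5p, MIR100HG: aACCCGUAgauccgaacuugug
hsa-let-7c-5p, MIR99AHG: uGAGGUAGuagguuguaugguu
hsa-let-7a-5p, MIR100HG, MIRLET7A1HG and MIRLET7BHG: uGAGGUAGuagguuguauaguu
hsa-let-7b-5p, MIRLET7BHG: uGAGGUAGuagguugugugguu
hsa-miR-125b-5p, MIR99AHG and MIR100HG: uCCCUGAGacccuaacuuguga
hsa-miR-4435, MIR4435-2HG: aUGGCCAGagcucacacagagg
hsa-miR-221-3p, MIR222HG: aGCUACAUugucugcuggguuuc
hsa-miR-222-3p, MIR222HG: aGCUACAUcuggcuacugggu
hsa-miR-29b-3p, MIR29B2CHG: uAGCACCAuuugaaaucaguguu
hsa-miR-29c-3p, MIR29B2CHG: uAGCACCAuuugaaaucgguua
hsa-miR-17-5p, MIR17HG: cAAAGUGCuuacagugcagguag
hsa-miR-20a-5p, MIR17HG: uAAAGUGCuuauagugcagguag
The let-7 seed GAGGUAG stood in 5 of the microRNAs looked up, from 4 hosts; let-7d and let-7f, which also have it, are not printed. MIR99AHG and MIR100HG each carried a let-7, a miR-125b and a microRNA with the seed ACCCGUA. The pairs miR-29b and miR-29c, miR-221 and miR-222, and miR-17 and miR-20a each shared a seed within 1 host, whereas the 3 microRNAs of MIR23AHG had 3 different seeds.

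The iCLIP libraries held 583192 to 1155052 counts, of which 400723 to 799709 lay on genes, and RNA-seq had 23407174 counts in the irradiated and 23401311 in the untreated library. The count of CDKN1A, a p53 target that rises after DNA damage, was 99 and 173 in irradiated against 21 and 34 in untreated iCLIP libraries, and 8111 in the irradiated against 2335 in the untreated RNA-seq library. Of the bone and mesenchymal markers, COL1A1 (44204 irradiated, 35832 untreated) and VIM (33956 irradiated, 36294 untreated) were abundant in RNA-seq, whereas SP7 was at 0 in both libraries and COL1A2 and BGLAP had 6 or fewer counts. Markers of other cell types reached 115 counts at most. COL1A1 was not listed in any iCLIP library despite its RNA-seq counts, nor were SPARC and the snoRNP gene FBL, so a gene that was not listed is not read as a gene without iCLIP signal. Nothing states that replicates came from separate cultures, and the p-values therefore measure only how far these libraries differ, and that may be a technical difference.

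Of the snoRNA hosts, 29 were listed in at least 1 iCLIP library and 31 in both RNA-seq libraries. Of the microRNA hosts, 71 were listed in iCLIP and 61 in RNA-seq, and 12 were listed in iCLIP only. SNHG4, SNHG9, MIR302CHG and MIR194-2HG were listed in RNA-seq only. In the iCLIP tables the median gene length was 6.82 kb for snoRNA hosts and 34.6 kb for microRNA hosts. Of the 104 genes, 47 overlapped another annotated gene, at least 26 of them one on the opposite strand, as strand was not given for every gene. No source used here says whether counting used strand, so reads of such a pair cannot be told apart.

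MicroRNA hosts gave more counts than snoRNA hosts in iCLIP and fewer in RNA-seq. These sums are counts, not levels per length. MicroRNA hosts together gave 0.402% and 0.428% of the gene counts of the irradiated iCLIP libraries, and 0.468% and 0.461% of those of the untreated ones. In RNA-seq the same genes gave 0.0443% of the irradiated and 0.0496% of the untreated library. SnoRNA hosts gave 0.181% and 0.216% in the irradiated and 0.206% and 0.186% in the untreated iCLIP libraries, and 0.107% and 0.106% in irradiated and untreated RNA-seq. So microRNA hosts had 2.23 and 1.98 times the counts of snoRNA hosts in irradiated iCLIP and 2.27 and 2.48 times in untreated iCLIP, but 0.413 times in irradiated and 0.467 times in untreated RNA-seq. The iCLIP share was 9.36 times the RNA-seq share for microRNA hosts and 1.85 times for snoRNA hosts, in irradiated and in untreated cells alike.

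With irradiation the summed share of the microRNA hosts was lower in both irradiated iCLIP libraries than in either untreated one, averaging 0.415 ± 0.0186% in irradiated and 0.465 ± 0.00521% in untreated cells (SD, n = 2 each). The snoRNA host shares of the irradiated libraries lay on either side of those of the untreated ones, averaging 0.198 ± 0.0250% in irradiated and 0.196 ± 0.0143% in untreated cells. No test was made of these sums; 2 libraries against 2 cannot go below an exact two-sided permutation p of 0.333. In iCLIP 1 gene weighed on the snoRNA host sum. SNHG22 held 267 of 724 and 605 of 1436 snoRNA host counts in irradiated and 612 of 1614 and 559 of 1489 in untreated libraries, and without it the snoRNA host shares averaged 0.120% in irradiated and 0.122% in untreated iCLIP, over 1.5 times lower. MIR4435-2HG held 145 of 1611 and 297 of 2847 microRNA host counts in irradiated and 484 of 3662 and 517 of 3686 in untreated libraries. Its iCLIP sum of 1443 was close to the 1435 of MIR3171HG, which had more counts in both irradiated libraries (225 and 348). Without MIR4435-2HG the shares averaged 0.375% in irradiated and 0.401% in untreated iCLIP. In RNA-seq it held 1896 of 5774 microRNA host counts in irradiated and 2456 of 6459 in untreated cells. With SNHG22 and MIR4435-2HG left out, microRNA hosts had 3.21 and 3.07 times the counts of snoRNA hosts in irradiated and 3.17 and 3.41 times in untreated iCLIP.

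**Figure D1:**
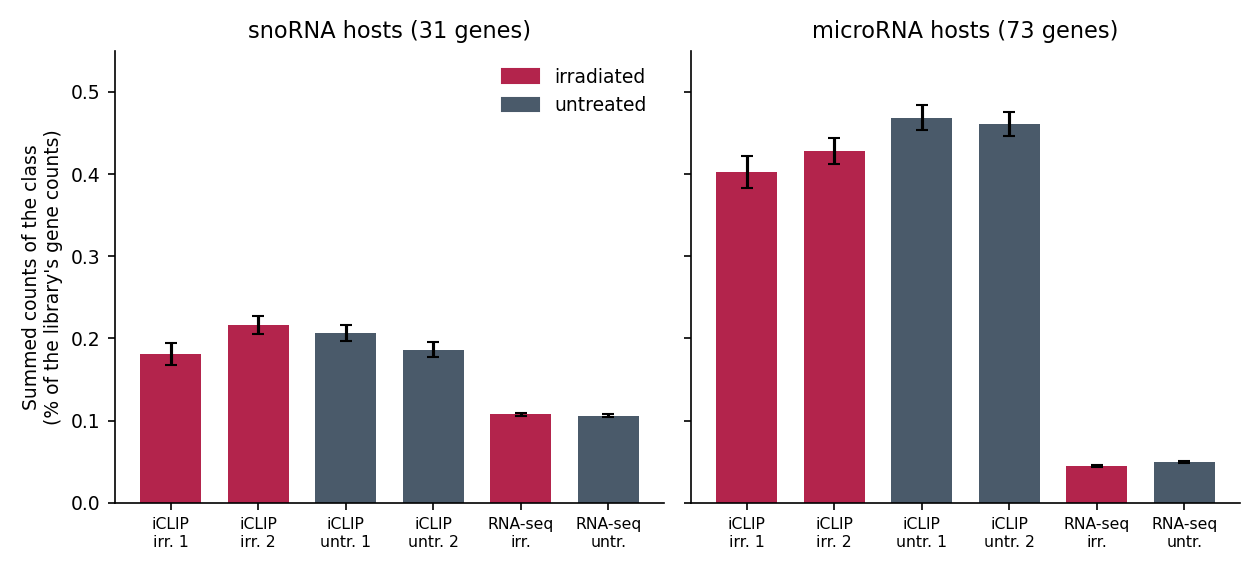
Summed counts of the 31 snoRNA hosts (left) and the 73 microRNA hosts (right) as a percent of each library's gene counts, 1 bar per library. Bars show exact 95% Clopper-Pearson intervals, which cover counting error only. MicroRNA hosts stand between 0.402% and 0.468% in iCLIP and below 0.05% in RNA-seq, and snoRNA hosts between 0.181% and 0.216% in iCLIP and near 0.107% in RNA-seq.

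MIR23AHG was the only host gene whose iCLIP count rose past the threshold after irradiation. It carries the cluster of miR-23a, miR-27a and miR-24 shown above. Its iCLIP counts were 133 and 245 in irradiated and 191 and 191 in untreated libraries of unequal depth. In CPM, which sets each library to a TMM-adjusted total of 1000000, they were 362 and 395 in irradiated cells, against 251 and 245 in untreated cells. Both irradiated libraries stood above both untreated ones, and the groups did not overlap. The log2 fold change was 0.61 ± 0.14 (SE), with an adjusted p of 0.0210 by edgeR's quasi-likelihood test with Benjamini-Hochberg adjustment over all 9230 genes tested. In RNA-seq it had 178 counts in irradiated and 161 in untreated cells, a ratio of 1.10 with an exact 95% interval of 0.881 to 1.37, which covers counting error only.

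MIR99AHG, the host of miR-99a, let-7c and the chromosome 21 copy of miR-125b, fell. It had 201 and 213 CPM in irradiated iCLIP libraries, against 374 and 290 CPM in untreated ones. Neither irradiated library reached the lower untreated one. The log2 fold change was -0.67 ± 0.16 (edgeR, adjusted p = 0.0261). Its RNA-seq count was small and close between conditions, 41 in irradiated and 38 in untreated cells (ratio 1.07, interval 0.672 to 1.71). MIR100HG, which carries the related cluster on chromosome 11, had 256 and 243 CPM in irradiated and 254 and 218 CPM in untreated iCLIP libraries, overlapping groups with a log2 fold change of 0.08 ± 0.15. In RNA-seq MIR100HG had 140 counts in irradiated and 84 in untreated cells, a ratio of 1.65 (1.25 to 2.19). Whether these 2 hosts differ in their change was not tested.

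MIR4435-2HG, the microRNA host with the most summed counts in each assay, also fell in iCLIP. It had 395 and 478 CPM in irradiated libraries, against 637 and 664 CPM in untreated ones, again without overlap. Its log2 fold change was -0.56 ± 0.14 (edgeR, adjusted p = 0.0271). RNA-seq ran the same way, with 1896 counts in irradiated and 2456 in untreated cells and a ratio of 0.766 (0.721 to 0.814). CYTOR, a near-identical copy elsewhere on chromosome 2, could share its reads; CYTOR had no count in irradiated iCLIP and 2 counts in untreated iCLIP, and 116 RNA-seq counts in irradiated and 102 in untreated cells.

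These 3 genes were all the calls among the 51 hosts that passed the filter on low counts, 21 snoRNA hosts and 30 microRNA hosts. Over all genes tested, 3.48% were called in either direction, 2.44% higher and 1.04% lower in irradiated cells. The groups did not overlap for 18 of the 51, against 43.9% of all genes tested. The remaining 53 hosts held 253 counts in irradiated and 397 in untreated iCLIP libraries in all. The median log2 fold change was 0.15 for the 21 tested snoRNA hosts, -0.06 for the 30 tested microRNA hosts and 0.0048 for all genes. The 3 calls do not hold under every setting. DESeq2 called none of the 3 (adjusted p 0.172 for MIR23AHG, 0.160 for MIR99AHG and 0.137 for MIR4435-2HG). Without untreated library 1 none was called (0.228, 0.448 and 0.129, in the same gene order), and without untreated library 2 MIR99AHG alone was called (0.0109). Leaving out irradiated library 2 ended the call of MIR23AHG (0.0692), and leaving out irradiated library 1 that of MIR4435-2HG (0.0508).

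**Figure D2:**
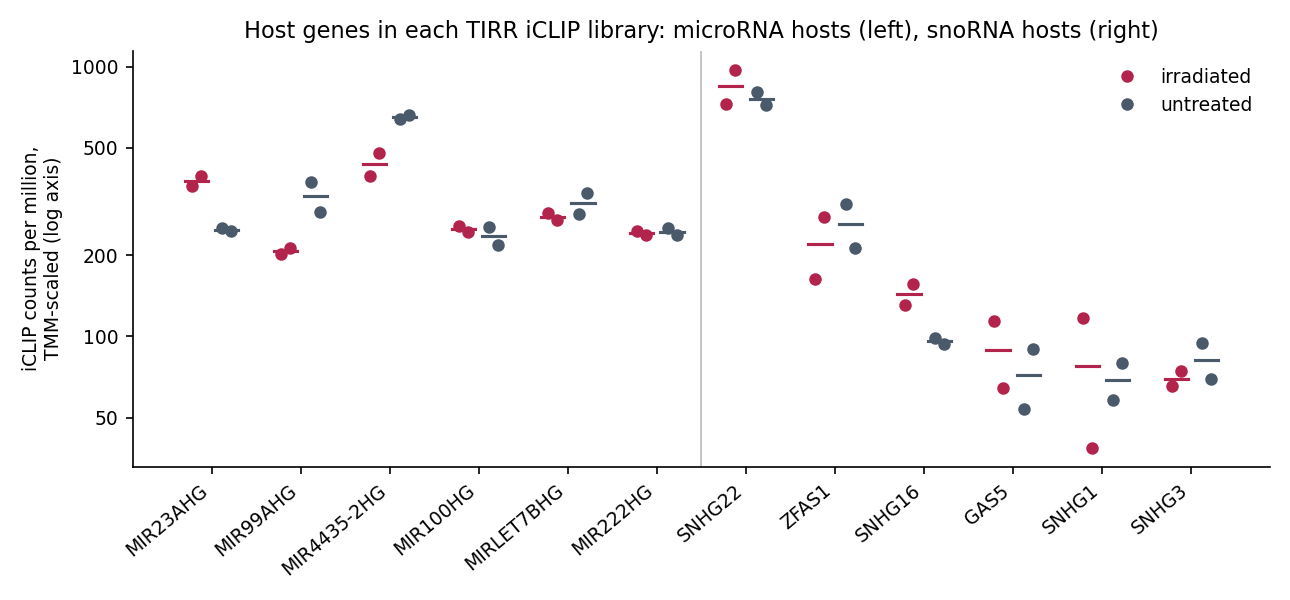
Scaled iCLIP counts (CPM) of 6 microRNA hosts and 6 snoRNA hosts on a log axis, 1 point per library and a line at each group's mean (n = 2 each). The irradiated points of MIR23AHG (362 and 395) lie above the untreated ones, those of MIR99AHG and MIR4435-2HG lie below, and for ZFAS1, GAS5 and SNHG1 the ranges of irradiated and untreated points overlap.

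None of the 21 tested snoRNA hosts was called with irradiation by edgeR or by DESeq2, and 1 of them, SNHG16, had an unadjusted edgeR p below 0.05, as had 14.6% of all genes tested. SNHG16 had 131 and 156 CPM in irradiated and 98.7 and 93.7 CPM in untreated iCLIP libraries, without overlap (log2 fold change 0.60 ± 0.19, edgeR adjusted p = 0.114). Without irradiated library 1 it passed, with an adjusted p of 0.0434. RNA-seq also gave more SNHG16 counts in irradiated cells, 1040 against 809 in untreated cells, a ratio of 1.28 (1.16 to 1.40). SNHG16 is 111.551 kb long in the iCLIP tables and 7.469 kb long in those of RNA-seq, so the 2 assays were counted over different spans.

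GAS5, whose introns hold a series of box C/D snoRNAs and whose spliced RNA is degraded when translation runs, had 114 and 64.4 CPM in irradiated and 54.0 and 89.9 CPM in untreated iCLIP libraries. The groups overlapped (log2 fold change 0.23 ± 0.29). In RNA-seq it had 680 counts in irradiated and 601 in untreated cells (ratio 1.12, 1.00 to 1.26). SNHG1 varied widely between its irradiated replicates, with 117 and 38.7 CPM there and 57.9 and 79.6 CPM in untreated cells (0.03 ± 0.35). ZFAS1 had 163 and 277 CPM in irradiated and 309 and 212 CPM in untreated cells (-0.19 ± 0.21). For both, each group's spread was wider than the difference of the means. SNHG22, the snoRNA host with the most iCLIP counts, had 727 and 974 CPM in irradiated and 805 and 718 CPM in untreated cells (0.17 ± 0.14).

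The RNA-seq comparison has 1 library per condition, so it has no replicate check and no test. None of the 35 hosts with at least 100 counts in either library passed the size rule of a ratio of at least 2-fold with its interval beyond 1.5-fold, which 1.49% of all such genes did (0.871% higher and 0.624% lower in irradiated cells). Among the 35, the interval lay wholly below 1 for 8 and wholly above 1 for 5. MIRLET7BHG had the lowest ratio, with 92 counts in irradiated and 181 in untreated cells (0.504, 0.388 to 0.652). Its iCLIP values were 286 and 271 CPM in irradiated and 284 and 340 CPM in untreated cells, and these groups overlapped.

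Among snoRNA hosts, SNHG18 had 126 counts in irradiated and 240 in untreated cells, a ratio of 0.521 (0.417 to 0.649), at no more than 5 counts in any iCLIP library. SNHG3, which carries the H/ACA RNAs SNORA73A and SNORA73B, had 463 counts in irradiated and 732 in untreated cells (0.628, 0.558 to 0.706). Its iCLIP values were 65.3 and 74.1 CPM in irradiated and 94.8 and 69.3 CPM in untreated cells, which overlapped (log2 fold change -0.22 ± 0.24). DANCR, GAS5, SNHG1 and ZFAS1 had RNA-seq ratios of 0.912, 1.12, 0.981 and 1.02. Below the count minimum, MIR31HG had 43 counts in irradiated and 11 in untreated cells, a ratio of 3.88 (1.97 to 8.34); this gene was singled out after its values were seen.

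**Figure D3:**
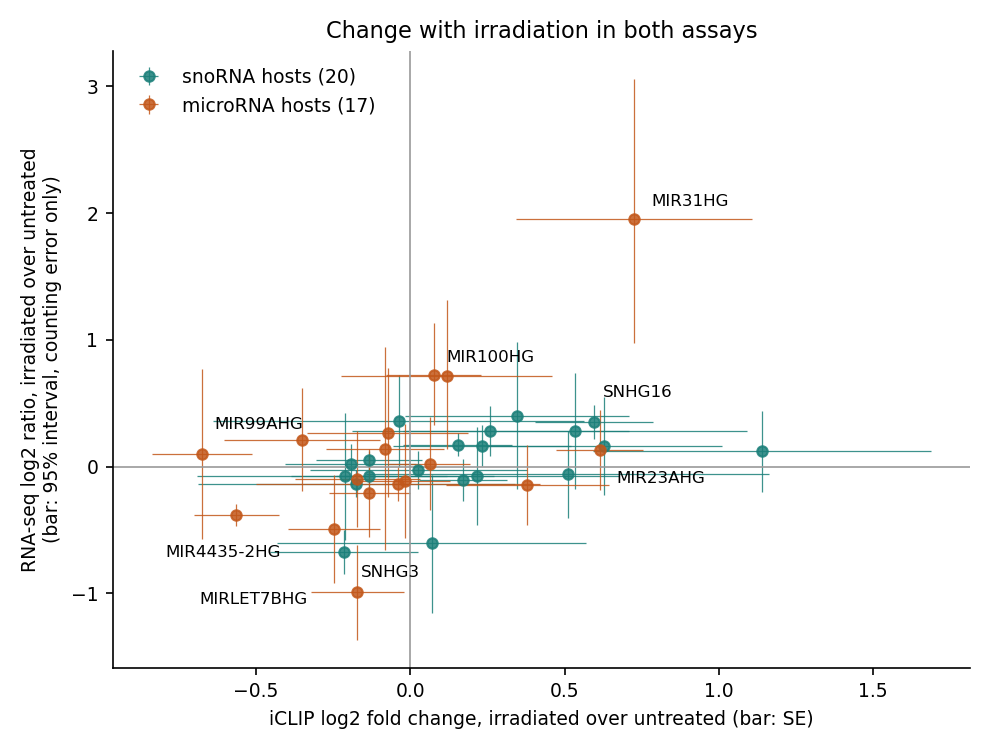
Change with irradiation in iCLIP (horizontal, log2 fold change with SE) and in RNA-seq (vertical, log2 ratio with the exact 95% interval for counting error) for the 20 snoRNA hosts and 17 microRNA hosts tested in iCLIP that had at least 50 RNA-seq counts in both libraries together. MIR4435-2HG lies low on both axes, SNHG16 high on both, MIR23AHG and MIR99AHG apart on the iCLIP axis, and MIRLET7BHG and SNHG3 low on the RNA-seq axis.

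Set against RNA-seq, hosts of both classes lay on either side of zero. With the irradiation state in the model, 34 microRNA hosts passed the filter on low counts and were called between the assays. Of these, 30 were higher in iCLIP, MIR497HG, MIR762HG and MIR1915HG were lower, and MIR302CHG, not listed in any iCLIP library, is read in neither direction. Of the 23 tested snoRNA hosts 13 were called, 7 higher and 6 lower. Most genes differed between these assays: 89.5% of the 13895 genes tested were called, 34.5% higher and 55.1% lower in iCLIP. A host could pass the filter through 1 assay alone, where its counts are high. That favours a difference without forcing it (SNHG5 passed through iCLIP alone and was not called), so these counts do not set the classes apart. MIR4527HG and MIR29B2CHG passed through iCLIP alone, for example, and MIR497HG through RNA-seq alone. No test of the difference between the classes was made. The median log2 fold change of all genes, iCLIP over RNA-seq, was -0.86, and -0.23 with library totals in place of TMM scaling.

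Among the microRNA hosts tested, the 2 highest differences were those of MIR29B2CHG and MIR4527HG; these and MIR17HG were picked after their values were seen. MIR29B2CHG, host of miR-29b and miR-29c, had 47 and 78 counts in irradiated and 108 and 89 in untreated iCLIP libraries, against 8 in irradiated and 4 in untreated RNA-seq (log2 fold change 7.34 ± 0.29). MIR4527HG had 14 and 26 counts in irradiated and 29 and 20 in untreated iCLIP libraries, against 1 in irradiated and 2 in untreated RNA-seq (7.30 ± 0.47). Their RNA-seq side thus rests on 12 and 3 counts in all. MIR17HG, which carries the miR-17 to miR-92a cluster over an annotated length of 6760 bases, had 31 and 69 counts in irradiated and 44 and 60 in untreated iCLIP libraries, against 10 in irradiated and 16 in untreated RNA-seq (5.63 ± 0.29). MIR99AHG had 74 and 132 counts in irradiated and 284 and 226 in untreated iCLIP libraries, against 41 and 38 counts in irradiated and untreated RNA-seq libraries that were many times deeper. Its log2 fold change between the assays was 5.74 ± 0.21. MIR3171HG, with 129 RNA-seq counts in irradiated and 126 in untreated cells, had 225 and 348 iCLIP counts in irradiated and 406 and 456 in untreated cells (5.17 ± 0.17). MIRLET7A1HG, at 34.6 kb a shorter host, reached 5.24 ± 0.23. MIR222HG, host of miR-221 and miR-222, reached 4.50 ± 0.17, and MIR23AHG 3.86 ± 0.17. MIR4435-2HG differed less, by 0.99 ± 0.14. Of the hosts in this paragraph, only MIR4435-2HG met the filter on low counts in RNA-seq as well. The others passed it through their iCLIP counts, where they are high, so their differences are descriptions and no p-value is given.

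Of the 3 lower microRNA hosts, MIR1915HG lost its call with library totals (-0.47, adjusted p = 0.111, against -1.10 ± 0.26 with TMM scaling; edgeR). MIR762HG had 7 and 13 counts in irradiated and 10 and 22 in untreated iCLIP libraries, against 881 in irradiated and 959 in untreated RNA-seq (-2.49 ± 0.22). It overlaps BCL7C on the opposite strand, which had 938 RNA-seq counts in irradiated and 1068 in untreated cells. MIR497HG was not listed in irradiated iCLIP libraries and had 3 and 3 counts in untreated ones. It passed the filter through RNA-seq alone, so its lower call is no evidence of a direction. With 343 RNA-seq counts in each condition, it lies opposite RNASEK-C17orf49 (479 irradiated, 453 untreated). MIR302CHG, with 384 RNA-seq counts in irradiated and 404 in untreated cells, lies opposite LARP7 (795 irradiated, 787 untreated) and was not listed in iCLIP. For these pairs, host and partner reads in RNA-seq cannot be told apart.

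The snoRNA hosts spread in both directions. SNHG22, whose first stretch holds the Cajal body RNA SCARNA17, had 267 and 605 counts in irradiated and 612 and 559 in untreated iCLIP libraries, against 587 in irradiated and 627 in untreated RNA-seq (log2 fold change 3.41 ± 0.16, adjusted p = 2.85e-17). SNHG22 lies within MYO5B on the opposite strand. SNHG31, SNHG25, ZFAS1, SNHG30, SNHG10 and SNHG12 were the other snoRNA hosts called higher, ZFAS1 by 1.58 ± 0.17. All of these but ZFAS1 passed the filter on low counts through iCLIP alone, so their calls are no evidence of a direction. DANCR, also known as SNHG13 and as a long RNA that keeps progenitor cells from differentiating, was the lowest, with 6 and 7 counts in irradiated and 11 and 12 in untreated iCLIP libraries, against 1434 in irradiated and 1560 in untreated RNA-seq (-3.72 ± 0.20, adjusted p = 4.70e-16). SNHG19, SNHG7, SNHG8, SNHG29 and SNHG14 were lower as well, but SNHG14 was not called with library totals (-0.044, edgeR adjusted p = 0.771). SNHG19 and SNHG7 passed the filter through RNA-seq alone, and the same limit holds for them. GAS5, SNHG1, SNHG3, SNHG6 and SNHG16 lay within 0.38 of zero and were not called, and their direction turned with the setting. With library totals GAS5, SNHG3, SNHG6 and SNHG16 were called higher in iCLIP (0.60, 0.67, 0.61 and 0.67), whereas with no filter all 5 were called lower (-0.54 for GAS5, -0.89 for SNHG1, -0.47 for SNHG3, -0.52 for SNHG6 and -0.46 for SNHG16).

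Per length as listed in the iCLIP tables, SNHG25 and SNHG3 had the densest iCLIP counts of all the hosts. SNHG25, which has a length of 0.335 kb in the iCLIP tables, had 59.6 and 193 CPM of unscaled gene counts per kb in irradiated and 126 and 105 in untreated libraries. It ranked 21 of the 11189 genes ranked by this density. SNHG3 ranked 80, SNHG22 141 and SNHG1 183. The listed length of SNHG3 is 2068 bases, against a RefSeq span of 4950 bases, so its rank depends on the length used. Of the microRNA hosts, MIR130AHG ranked 143 and MIR23AHG 227, whereas MIR99AHG, spread over 716.714 kb, ranked 8052.

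Length went with the ratio between assays. For hosts with at least 50 RNA-seq counts in both libraries together, each gene's share of iCLIP gene counts was set over its share of RNA-seq gene counts, with a prior count of 0.5. The median log2 ratio of the 23 microRNA hosts was 3.05 in irradiated and 3.46 in untreated cells. That of the 27 snoRNA hosts was 0.57 in irradiated and 0.51 in untreated cells, and that of all 16624 genes -1.07 and -1.01. Among genes listed in iCLIP the medians were 3.10 and 3.68 for 22 microRNA hosts, 0.57 and 0.59 for 25 snoRNA hosts and -0.13 and -0.08 for all 12769 genes, in irradiated and untreated cells.

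Within length bins, over genes listed in iCLIP, the 8 microRNA hosts of 100 kb or more had medians of 4.07 in irradiated and 4.77 in untreated cells, against 1.78 and 1.90 for all genes of that length. From 10 to 100 kb, the 10 microRNA hosts had 3.87 in both conditions, the 8 snoRNA hosts 1.28 in irradiated and 1.07 in untreated cells, and all genes -0.28 and -0.21. Under 10 kb, the 15 snoRNA hosts had 0.31 in irradiated and 0.50 in untreated cells, the 4 microRNA hosts -1.25 and -0.15, and all genes -2.21 and -2.16. The 2 snoRNA hosts of 100 kb or more with at least 50 RNA-seq counts, SNHG14 and SNHG16, had a median of 0.33 in irradiated and 0.30 in untreated cells, below that of all genes of 100 kb or more. SNHG16 stands in this bin by its iCLIP length of 111551 bases, but its RNA-seq length is 7469 bases. Its untreated ratio of 0.59 lies above the -2.16 of all genes under 10 kb, so its place depends on the length used. The same holds for hosts in the bin from 10 to 100 kb whose RefSeq span is under 10 kb. Among them are GAS5 (span 5145 bases), SNHG5 (1727), SNHG10 (1961), SNHG26 (7197) and MIR23AHG (8403). SNHG31, 152942 bases long and called higher in iCLIP, was under this minimum with 44 RNA-seq counts. Across genes, as a description only, Spearman's rho of the untreated ratio with length was 0.54 over the 22 microRNA hosts, 0.14 over the 25 snoRNA hosts and 0.62 over all 12769 genes, points that share the same libraries.

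**Figure D4:**
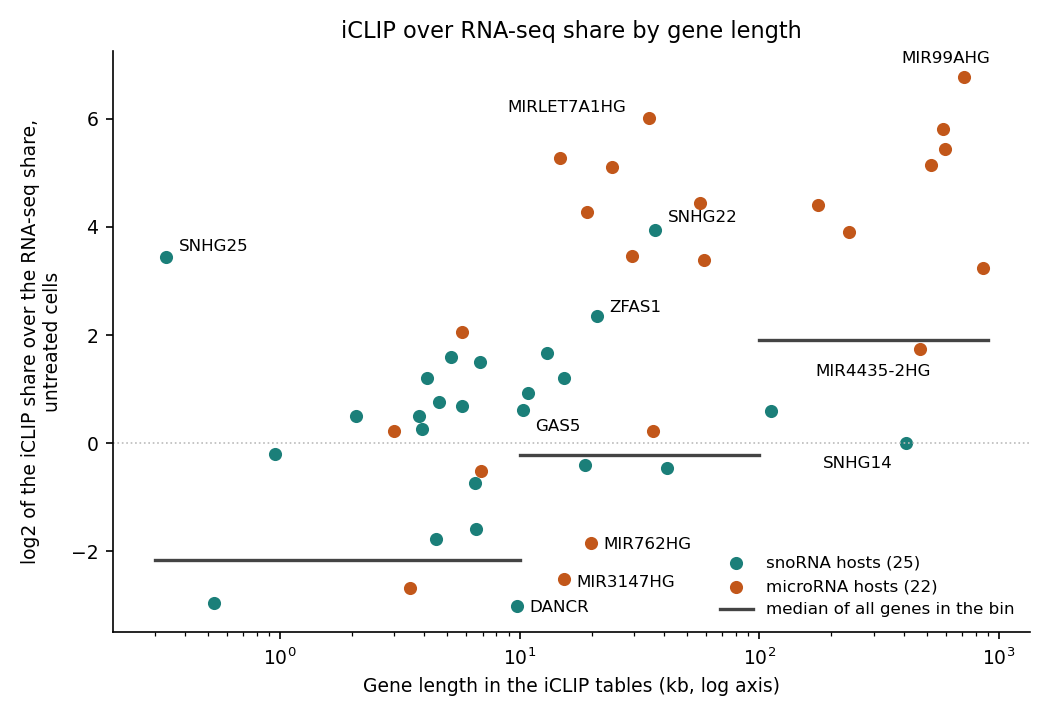
Log2 of the iCLIP share over the RNA-seq share in untreated cells against gene length (log axis), 1 point per host listed in iCLIP with at least 50 RNA-seq counts; dark lines give the median of all such genes under 10 kb (-2.16), from 10 to 100 kb (-0.21) and from 100 kb (1.90). Most microRNA hosts above 10 kb lie above the line of their bin, SNHG14 and SNHG16 lie below theirs, and DANCR is the lowest snoRNA host. All hosts are placed by their iCLIP length, which for some differs from the RefSeq span. For SNHG16 it is 111551 bases, against 7469 bases in RNA-seq.

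The small RNAs inside the hosts have rows of their own. Inside 30 snoRNA hosts, RefSeq places 150 snoRNAs and Cajal body RNAs, of which 42 were listed in iCLIP. They held 140 and 152 counts in irradiated and 167 and 176 in untreated iCLIP libraries. As a share of host and small RNA counts together this was 16.3% and 9.57% in irradiated and 9.41% and 10.6% in untreated iCLIP, against 0.583% in irradiated and 0.697% in untreated RNA-seq. SCARNA17 in SNHG22 had 29 and 42 counts in irradiated and 55 and 42 in untreated iCLIP libraries, and it was not listed in RNA-seq. SNORA73A and SNORA73B in SNHG3 had 84 and 70 iCLIP counts in all, beside 196 for SNHG3 itself, and SNORA24 in SNHG8 had 35 beside 48. The 4 that could be tested (SCARNA17, SNORA73A, SNORA73B and SNORA24) were not called with irradiation by edgeR, the highest log2 fold change being 0.65 ± 0.37 for SNORA73B. SNORA73A and SNORA73B are near-identical, so their split of reads is uncertain.

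Of 108 microRNA hairpins inside 69 microRNA hosts, 5 were listed in iCLIP, with 7 counts in all, 1 in irradiated and 6 in untreated libraries. This was 0.0595% of the host and hairpin counts together. In RNA-seq the hairpins had 30 counts in irradiated and 38 in untreated cells.

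Ribosomal protein genes and many snoRNA hosts are known to start with a 5′ terminal oligopyrimidine (TOP) tract, so the annotated starts were read from the RefSeq promoter table (GRCh38.p14). A start was counted as TOP where its first base was C and the next 4 bases were each C or T, on the transcribed strand. It was found in 7 of 27 snoRNA hosts with a promoter in the table (25.9%), in 2 of 57 microRNA hosts (3.51%) and in 4.07% of all 35116 promoters. The E-box CACGTG, which reads the same on both strands, lay within the 300 bases (250 before to 50 after the start) of 2 snoRNA hosts (7.41%), 2 microRNA hosts (3.51%) and 7.26% of all promoters. TATAAA on either strand lay in 4 snoRNA hosts (14.8%), 6 microRNA hosts (10.5%) and 11.5% of all promoters. Shown here are 10 bases before and 20 from the start, with the first 5 transcribed bases in capitals, for 4 TOP starts and, for contrast, DANCR and MIR23AHG without one.
SNHG5, chr6:85678714-85678743, minus strand: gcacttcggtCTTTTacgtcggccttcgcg
SNHG19, chr16:2155339-2155368, minus strand: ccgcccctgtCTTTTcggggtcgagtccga
ZFAS1, chr20:49278632-49278661, plus strand: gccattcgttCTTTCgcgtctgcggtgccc
SNHG12, chr1:28581854-28581883, minus strand: gcttcagcgcCCTTTctccccgccgcattc
DANCR, chr4:52712384-52712413, plus strand: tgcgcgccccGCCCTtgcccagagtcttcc
MIR23AHG, chr19:13842899-13842928, minus strand: gcggctggccGGCCAgtgagtggggtggag
The RNA-seq ratio of irradiated over untreated cells was 0.521 to 1.12 over the 7 TOP hosts (median 0.95) and 0.628 to 1.28 over the 16 other snoRNA hosts with a promoter in the table and at least 50 counts (median 0.966). A match is a description of the annotated start, which for ZFAS1 and SNHG12 lies inside the annotated gene span. The same holds for a missing match, so the 16 other hosts, GAS5 and SNHG1 among them, are not shown to lack a TOP tract.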

How the data were processed

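Each table deposited by the authors lists unscaled counts of cDNA by gene, per the file headers, beside a percent of the library and a length in bases. The build is hg38 and kallisto 0.44.0 is named for RNA-seq, per the submitters' processing notes; for the aligner, duplicate removal and strand, no setting was stated in these sources. Intergenic counts (30.6% to 31.3% of iCLIP and 44.4% of RNA-seq libraries) were left out. Columns of other samples numbered 0. Replicates were not the same library: chi-square per degree of freedom was 1.87 between the irradiated and 1.42 between the untreated pair.

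Members were matched by symbol and joined across assays by identifier; 102 matched RefSeq (GRCh38.p14). The members and lists were chosen with earlier results of these data known. edgeR 4.0.16 (R 4.3.3) was fitted over all genes with filterByExpr, TMM scaling, a quasi-likelihood F test and Benjamini-Hochberg adjustment at 0.05, two-sided, and was tested on simulated data. DESeq2 1.42.0, library totals, other filters, the replicate block and left-out libraries were alternatives. RNA-seq ratios were TMM-scaled with exact conditional 95% intervals. Intervals cover counting error only. Python 3.11.15, pandas 2.3.3 and scipy 1.17.1 were used, with matplotlib 3.10.9 for figures.

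Named genes were GAS5, ZFAS1, DANCR and SNHG1, members called with irradiation, the 10 of each class with the most iCLIP counts and 5 with the most RNA-seq counts, and the 3 highest and 3 lowest ratios between assays. Other members were named to account for counts of calls, intervals or partners.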

Additional observations from a re-analysis of the deposited data

How the results depend on the processing

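In iCLIP, 3 hosts were called with irradiation, and again 3 with library totals, no filter and a stricter filter, but 0 with DESeq2 (122 genes called in all) and 0 with the replicate block (187 genes called, against 321 without it). Deviations of same-numbered libraries from their group means had a correlation of -0.0934. With 2 libraries per group both pairs must give the same value. It cannot show whether same-numbered libraries share more than a number. Leaving out 1 iCLIP library gave 0 to 3 called hosts. The 3 called hosts kept their direction under all 9 alternatives; MIR23AHG and MIR4435-2HG were called under 4 of them and MIR99AHG under 6. Of hosts that were not called, the sign of the log2 fold change turned for MIR222HG with the stricter filter (0.0028), for MIR3171HG (-0.0093) and SNHG1 (-0.045) with library totals, and for SNHG1 with no filter (-0.011). It also turned when 1 library was left out, with lowest and highest values of -0.40 to 0.12 for DANCR, -0.16 to 0.66 for GAS5, -0.038 to 0.17 for MIR100HG, -0.067 to 0.0070 for MIR222HG, -0.016 to 0.12 for MIR3171HG, -0.36 to 0.047 for MIR3667HG, -0.50 to 0.60 for MIR762HG, -0.26 to 0.082 for MIRLET7A1HG, -0.83 to 0.76 for SNHG1, -0.074 to 0.36 for SNHG22, -0.87 to 0.80 for SNHG25, -0.44 to 0.0072 for SNHG3, -0.59 to 0.10 for SNHG6 and -0.68 to 0.091 for ZFAS1.

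Between iCLIP and RNA-seq 81 hosts were called with no filter, where all 104 are tested, against 47; the cause of the sign changes below was not tested. Values of the opposite sign were those of GAS5 (0.60), SNHG1 (0.25) and SNHG6 (0.61) with library totals, of GAS5 (0.35), SNHG1 (0.0025) and SNHG6 (0.37) with the stricter filter, of GAS5 with DESeq2 (0.0025), and of SNHG16 (-0.46) and SNHG3 (-0.47) with no filter. Calls were lost for MIR1915HG with library totals (-0.47, edgeR adjusted p = 0.111) and for SNHG14 with library totals (-0.044, 0.771) and the stricter filter (-0.29, 0.0581). Calls were gained for GAS5 (0.0046) and SNHG6 (0.0027) with library totals, for SNHG3 and SNHG16 with library totals (0.67 each) and the stricter filter (0.42 and 0.43), for the 5 hosts GAS5, SNHG1, SNHG3, SNHG6 and SNHG16, all lower, with no filter, and for SNHG1 without irradiated library 1 (-0.62). With 1 library left out, GAS5 ran from -0.16 to 0.17, SNHG16 from -0.0076 to 0.11, SNHG3 from -0.030 to 0.21 and SNHG6 from -0.091 to 0.11. No host passed the RNA-seq size rule with a minimum of 50 counts or with library totals.

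The median log2 ratio of shares moved with 200 RNA-seq counts as the minimum (snoRNA hosts 0.25 irradiated and 0.14 untreated; microRNA hosts 2.64 and 2.72) and without hosts that overlap another gene (snoRNA hosts 0.43 and 0.38; microRNA hosts 2.55 and 2.65). Leaving out 1 library gave 0.38 to 0.48 for snoRNA hosts in untreated cells and 3.05 to 3.09 for microRNA hosts in irradiated cells. An alternative chosen after seeing the data, without the hosts whose length differs by over 1.2-fold between the tables, moved no median by more than the spread between replicates. With intergenic counts in the denominator, the summed shares of irradiated and untreated iCLIP and irradiated and untreated RNA-seq were 0.137%, 0.136%, 0.0598% and 0.0591% for snoRNA hosts and 0.286%, 0.322%, 0.0247% and 0.0276% for microRNA hosts. Without the member with the most counts they were 0.120%, 0.122%, 0.0837% and 0.0835% for snoRNA hosts and 0.375%, 0.401%, 0.0298% and 0.0308% for microRNA hosts.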

Other observations

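Genes of the machinery around the hosts were described with the same iCLIP fit. None of the 11 tested genes of snoRNP proteins and assembly factors, none of the 14 tested genes of microRNA processing and none of the 12 tested genes of nonsense-mediated decay was called with irradiation, with median log2 fold changes of -0.13, -0.05 and 0.07, against 0.0048 over all genes tested, of which 3.48% were called. None of the 17, 17 and 16 genes of these lists passed the RNA-seq size rule, which 1.49% of all genes passed. At such shares lists of this size would hold few calls or none, so these counts say little about the lists. AGO2, the slicing Argonaute, had 145 and 225 counts in irradiated and 323 and 343 in untreated iCLIP libraries (log2 fold change -0.20 ± 0.14), and TNRC6B, an Argonaute partner, had 192 and 346 in irradiated and 463 and 458 in untreated ones (-0.15 ± 0.13).

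Among protein-coding genes that carry snoRNAs in their introns, 1 of 31 tested rose in iCLIP and none fell, near the shares of all genes (2.44% higher and 1.04% lower). It was WDR43, a ribosome assembly factor, with 105 and 275 counts in irradiated and 181 and 172 in untreated libraries (1.62-fold, edgeR adjusted p = 0.0348). Of 23 tested protein-coding genes that carry microRNAs, 2 rose and none fell, beside the same 2.44% and 1.04% of all genes. PANK1, a pantothenate kinase whose intron holds miR-107, had 16 and 49 counts in irradiated and 18 and 17 in untreated iCLIP libraries (2.82-fold, adjusted p = 0.0155). PDE2A, a phosphodiesterase whose intron holds miR-139, had 72 and 135 counts in irradiated and 91 and 80 in untreated iCLIP libraries (1.87-fold, adjusted p = 0.0057). Both also passed the RNA-seq size rule, as did 0.871% of all genes in that direction, PANK1 with 464 counts in irradiated and 228 in untreated cells and PDE2A with 485 in irradiated and 220 in untreated cells. RUNX2, a bone transcription factor among the cell type markers, fell in iCLIP, with 267 and 469 counts in irradiated and 875 and 889 in untreated libraries (log2 fold change -0.63 ± 0.12, edgeR adjusted p = 0.0048). The iCLIP calls of WDR43, PANK1, PDE2A and RUNX2 are those of the main edgeR setting, and their values under the other settings are not given here.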
